A study of Homo sapiens with 6 samples.

Results

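The axon guidance ligands and receptors examined here were the ephrins with their Eph receptors, the semaphorins with the plexins and neuropilins, the Slits with the Robo receptors, and netrin-1 and netrin-4 with the UNC5 receptors and DCC. A gene was a member when the RefSeq accession of its probe mapped to an EPHA, EPHB, EFNA or EFNB symbol with a number, to a symbol that starts with SEMA or PLXN, or to NRP1, NRP2, ROBO1 to ROBO4, SLIT1 to SLIT3, NTN1, NTN4, UNC5A to UNC5D or DCC. This gave 67 genes on 94 probes, of 20503 genes that could be named on the array. The 67 genes are all the coding symbols of this rule in the RefSeq table, and 9 antisense symbols that begin with the same letters had no probe.

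The study asked which genes change when the propeptide of lysyl oxidase, LOX-PP, is produced in A673, a cell line derived from an Ewing sarcoma. RNA was hybridised in 1 colour (Cy3) to 6 Agilent SurePrint G3 arrays, 3 labelled A673/TR/empty and 3 labelled A673/TR/LOX-PP. TR stands for the tetracycline repressor, which both lines carry and which keeps the introduced cDNA silent until doxycycline is added. The A673/TR/LOX-PP cells carry a lentiviral vector with the LOX-PP cDNA and were kept with doxycycline for 72 h, and A673/TR/empty is the same line with an empty vector. The labels give 1 uM doxycycline for all 6 samples, whereas in the methods the drug is tied plainly to A673/TR/LOX-PP alone, which leaves the treatment of the control cells unsettled. Stable clones were made with the vectors, and per the methods those with strong induction were taken further, without naming the clone used for the arrays. No array of A673/TR/LOX-PP cells without doxycycline was analysed here, so a difference between the lines and an effect of LOX-PP cannot be told apart.

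Axon guidance molecules steer growing nerve fibres by attraction and repulsion, and outside the nervous system they act on cell migration, adhesion and vessel growth. Ephrins are held in the membrane and bind Eph receptor tyrosine kinases on a touching cell, so that a signal can pass both ways. Secreted class 3 semaphorins bind a neuropilin that is paired with a plexin, Slits bind Robo receptors, and netrins bind DCC and the UNC5 receptors. Ewing sarcoma cells depend on EWS/FLI1, a fusion protein whose FLI1 portion binds DNA at GGAA and at repeats of it.

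The stretches upstream of the start sites of called members are shown because A673 cells hold this factor, with each GGAA, or TTCC where it lies on the other strand, in capitals. They are the 250 bases before the start listed by RefSeq (GRCh38.p14), 5′ to 3′ on the strand of the gene. They are printed for the 4 called members with a single listed start, EPHB1 (chr3:134795010-134795259, plus strand), UNC5A (chr5:176810309-176810558, plus strand), NRP2 (chr2:205682251-205682500, plus strand) and EFNA5 (chr5:107670938-107671187, minus strand), and for the first of the 2 starts of NTN4 (chr12:95791156-95791405, minus strand), the member with the lowest adjusted p.
EPHB1: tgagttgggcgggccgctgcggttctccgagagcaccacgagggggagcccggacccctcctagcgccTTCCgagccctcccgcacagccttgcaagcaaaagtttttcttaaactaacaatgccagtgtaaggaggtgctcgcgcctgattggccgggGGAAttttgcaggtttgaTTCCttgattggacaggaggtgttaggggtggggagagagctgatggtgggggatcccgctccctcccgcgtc
UNC5A: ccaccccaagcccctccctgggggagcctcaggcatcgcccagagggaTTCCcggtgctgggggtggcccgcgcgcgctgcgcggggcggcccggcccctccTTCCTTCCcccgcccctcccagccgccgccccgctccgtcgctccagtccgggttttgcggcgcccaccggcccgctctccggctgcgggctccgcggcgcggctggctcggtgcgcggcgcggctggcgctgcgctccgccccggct
NTN4: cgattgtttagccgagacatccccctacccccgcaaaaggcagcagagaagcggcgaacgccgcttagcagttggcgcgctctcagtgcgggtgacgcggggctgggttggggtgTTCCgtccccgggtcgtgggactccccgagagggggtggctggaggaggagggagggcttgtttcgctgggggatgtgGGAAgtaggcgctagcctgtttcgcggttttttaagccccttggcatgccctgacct
NRP2: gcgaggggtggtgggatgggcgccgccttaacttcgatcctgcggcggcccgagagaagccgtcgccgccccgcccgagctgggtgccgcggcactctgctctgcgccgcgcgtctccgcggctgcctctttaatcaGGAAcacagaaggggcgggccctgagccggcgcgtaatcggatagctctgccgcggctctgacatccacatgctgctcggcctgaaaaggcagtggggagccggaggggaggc
EFNA5: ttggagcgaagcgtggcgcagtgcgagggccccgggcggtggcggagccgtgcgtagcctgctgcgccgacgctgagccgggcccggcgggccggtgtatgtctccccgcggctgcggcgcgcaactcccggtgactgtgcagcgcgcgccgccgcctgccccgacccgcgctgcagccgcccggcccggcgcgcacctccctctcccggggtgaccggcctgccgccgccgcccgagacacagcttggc
EPHB1 and UNC5A held 3 matches each, NTN4 held 2, NRP2 held 1 and EFNA5 held 0. The 4 letters were common, since 92.7% of all 35116 windows of this length held them on either strand, as did 12 of the 14 windows of called members. The tandem GGAAGGAA, read on both strands and always overlapping the single core, was in 3.06% of all windows. It was in 4 of the 80 windows of the 52 members that have one, those of UNC5A, EFNA4, PLXNB1 and SLIT3. A match describes the letters of a window and is not a bound site.

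Signals are given as log2 values relative to the 75th percentile of the array, so that 0 is a probe as bright as that percentile and 1 unit is a doubling. Values of the 3 replicates are given in the order of their numbers in the labels. The share of spots well above background ran from 56.9% to 74.8% per array, no gene spot was saturated, and the number of arrays limits the precision. The LOX-PP arrays were not higher for the single LOX probe (0.13 ± 0.22 on the control arrays, against -0.70 ± 0.58 with LOX-PP, SD, n = 3 each), so the labels could not be checked with it, and every direction below rests on the labels. The files do not place this probe relative to the propeptide cDNA. Replicate 1 of A673/TR/LOX-PP was alone on slide 2, and the other 5 arrays shared slide 1. All 14 genes of the Ewing sarcoma marker list were well above background on all 6 arrays. IGFBP3 was the dimmest of them (-4.33 on the control arrays and -3.26 with LOX-PP). The 4 blood cell markers on the array were well above background on all 6 as well, so detection alone does not identify the cells. CDH1, KRT5 and TEK, markers of epithelial and endothelial cells, were well above background on 0 arrays. The summed signal of the 5 epithelial markers, as a multiple of the 75th percentile, ran from 0.333 to 0.424 on the control arrays and from 4.13 to 5.28 on the LOX-PP arrays, of which KRT14 was the called gene (higher by 5.13, adjusted p = 0.000142). KRT19 read the other way without overlap (-1.01, adjusted p = 0.0519), and EPCAM gave 0.49 (adjusted p = 0.263). Among the other markers, CCK of the Ewing sarcoma list (-2.67, adjusted p = 0.01) and LUM of the fibroblast list (-2.42, adjusted p = 0.0191, well above background on 2 control arrays and 1 LOX-PP array) were called lower, and none was called higher. The part of these changes in the results on guidance genes was not tested. In RNA from whole cultures, fewer cells of a kind and less RNA per cell cannot be told apart.

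Differences are A673/TR/LOX-PP minus A673/TR/empty on the log2 scale, after subtraction of the median difference of all tested probes. That median was 0.13, compared with -0.03 under quantile normalization. The test itself was limma on the difference before this subtraction, with Benjamini-Hochberg adjustment over all 32647 tested probes, and a gene was called when its adjusted p was under 0.05. A gene is represented by its tested probe with the highest mean signal. Of the 67 members, 61 passed the filter on dim probes, which kept probes well above background on 3 or more of the 6 arrays, and 47 were well above background on all 6.

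Among the 61 tested members, 8 were called (13.1%), beside 7.07% of all 16601 tested genes. Higher on the LOX-PP arrays were 5 members, beside 3.7% of all genes, namely the receptors EPHB1 and UNC5A and the ligands SEMA5B, EFNA5 and SEMA3F. Lower were 3 members, beside 3.37% of all genes, namely the ligands NTN4 and SEMA3C and the receptor NRP2. By probe, 9 of the 78 tested member probes were called (11.5%), beside 5.66% of all tested probes, since both probes of SEMA5B passed. The groups did not overlap for 26 members (42.6%), 16 higher and 10 lower, beside 33.6% of all genes. The called members were therefore spread over both directions and over ligands (3 higher and 2 lower of 30 tested) and receptors (2 higher and 1 lower of 31 tested).

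The signs among the members were mixed. Their median difference was 0.07, compared with -0.09 for all genes, with 34 above and 27 below 0. The median size of the difference was 0.58 among members and 0.39 among all genes, while the median standard errors were 0.29 and 0.28. Differences above 1 were found for 11 members and below -1 for 5. The number of calls changed when 1 array was left out, and a fit on fewer arrays has less power. This number was 2 without control replicate 2, 3 without control replicate 1, and 5 without control replicate 3 or LOX-PP replicate 2. It was 6 without LOX-PP replicate 3 and 9 without LOX-PP replicate 1. The share of all probes called moved with it, since 444 of them were left without control replicate 2 and 407 without control replicate 1, compared with 1849.

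**Figure D1:**
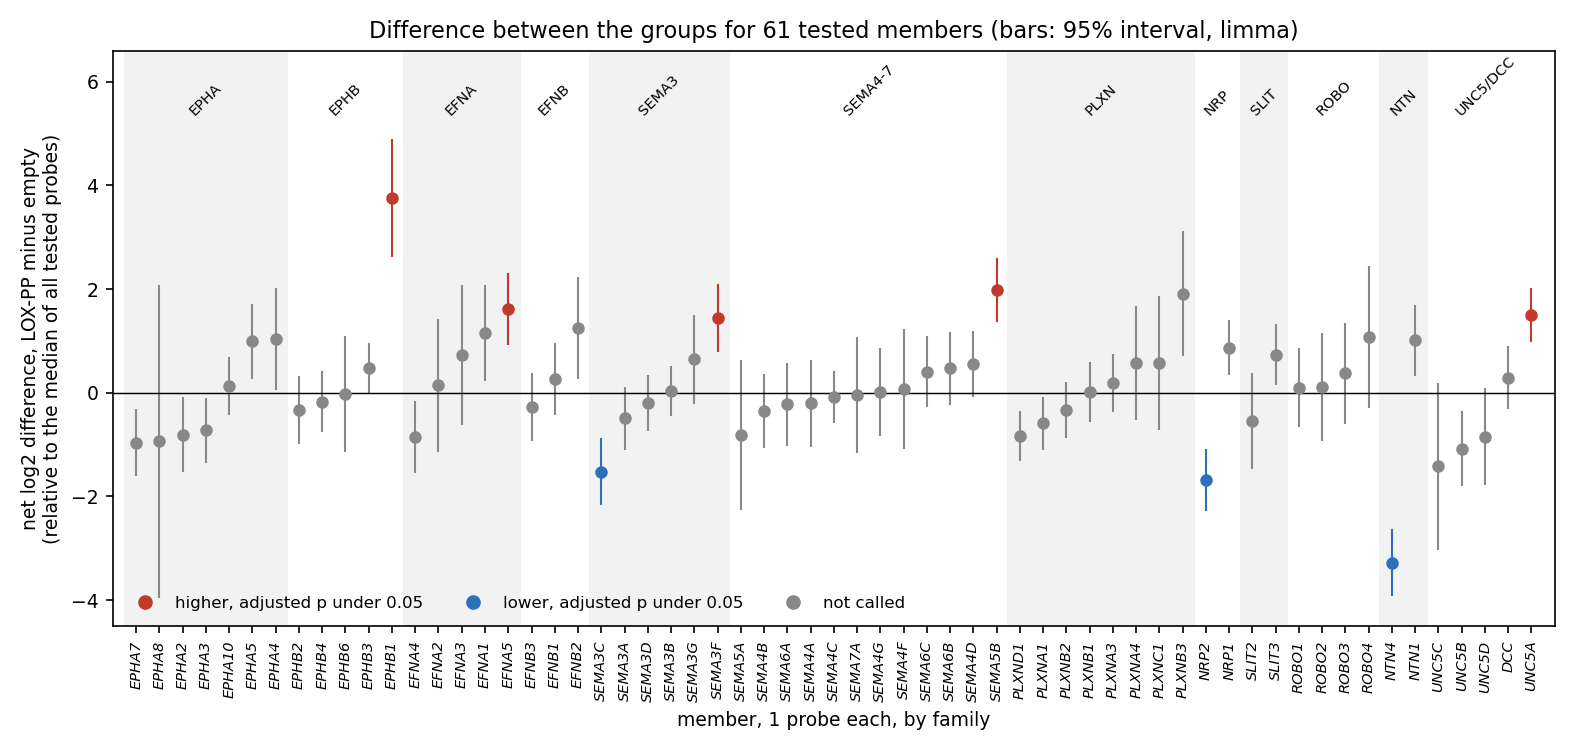
Net log2 difference (LOX-PP minus empty, relative to the median of all tested probes) of the 61 tested members, 1 probe each, sorted within families on the x axis; points are limma estimates and bars are 95% intervals. EPHB1 at 3.76 and NTN4 at -3.27 lie farthest from 0, and the other 6 called members lie between -1.69 and 1.98.

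The netrin system held both the strongest fall and a rise. NTN4, a secreted netrin that also binds laminins of basement membranes, gave 0.19, 0.64 and 0.36 on the control arrays, against -3.21, -2.50 and -2.54 with LOX-PP. Every LOX-PP value lay below every control value by more than the spread within either group. The net difference was -3.27 ± 0.28 (SE, n = 3 per group), a 9.68-fold lower signal (adjusted p = 0.00225). This call was kept under all 18 alternatives tried, with net differences from -3.45 to -2.92.

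UNC5A, a netrin receptor of the repulsive UNC5 family, moved the other way. Its log2 signal was -2.10, -2.31 and -2.51 on the control arrays, against -0.86, -0.65 and -0.55 with LOX-PP. The groups did not overlap, and the rise was 1.49 ± 0.22 (2.82-fold, adjusted p = 0.0105). The call was lost without control replicate 1 (1.61, adjusted p = 0.0606) or 2 (1.56, adjusted p = 0.0674) and with no filter on dim probes (1.32, adjusted p = 0.0549). A replicate block also ended it (adjusted p = 0.0532).

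The other netrin ligand and receptors were not called over all 6 arrays with the filter used here. NTN1, the founding secreted netrin, read 1.88, 1.79 and 1.69 on the control arrays, against 3.45, 2.86 and 2.47 with LOX-PP. These groups did not overlap, and the difference of 1.01 ± 0.29 missed the threshold (adjusted p = 0.0733). It passed among probes well above background on all 6 arrays (1.07, adjusted p = 0.0477). It also passed in the fit on the mean of all probes of each gene (1.09, adjusted p = 0.0426). NTN1 has 1 probe, so that fit averaged nothing for it. UNC5B, the brightest receptor probe of the family, differed by -1.07 ± 0.31 (adjusted p = 0.136), again without overlap. DCC, the attractive netrin receptor, differed by 0.29 with a 95% interval from -0.31 to 0.89. UNC5C gave -1.42 (95% interval from -3.04 to 0.20) and UNC5D gave -0.84 (from -1.79 to 0.10). The LOX-PP arrays were spread widely for both (SD 1.46 and 0.73, n = 3). UNC5C was well above background on 2 control arrays and 1 LOX-PP array, and its dimmer probe gave -0.18 (adjusted p = 0.961). Its brighter probe passed without LOX-PP replicate 2 (-2.15, adjusted p = 0.0489). The 2 netrins therefore had values of opposite sign, as did UNC5A and UNC5B. UNC5C and UNC5D had the sign of UNC5B, with intervals across 0.

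Among the 12 tested Eph receptors only EPHB1 was called. EPHB1, a receptor for B-class ephrins, gave -5.73, -6.18 and -6.09 on the control arrays, against -1.30, -1.84 and -3.20 with LOX-PP. All 3 LOX-PP arrays measured it well above background, compared with 1 of the 3 control arrays, so that it passed the filter mainly through the group in which it was high. The lowest signal that counted as well above background ran from -7.07 to -5.37 on the control arrays, which is where the control values lie. The rise was 3.76 ± 0.48 (13.6-fold, adjusted p = 0.00731), and the size depended on the treatment of dim signals. It was 2.43 after normexp background correction (adjusted p = 0.00942) and 2.56 with a common floor under all arrays (adjusted p = 0.025), both smaller in size than the change of NTN4 under any alternative. The methods' t-test ended the call (adjusted p = 0.0717), and no single array did.

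The remaining Eph receptors were not called. EPHA4, which binds ephrins of both classes, had the largest difference of the A class with 1.03 ± 0.42 (adjusted p = 0.172), from 0.75, 0.93 and -0.26 on the control arrays to 2.18, 1.64 and 1.08. EPHA2, the brightest probe of the A class, went the other way by -0.81 ± 0.30 (adjusted p = 0.255), and its groups did not overlap either. The A class as a whole ran from -0.96 for EPHA7 to 1.03, with 3 of 7 above 0. In the B class EPHB4, a partner of ephrin-B2 in vessels, stayed within its spread at -0.17 (95% interval from -0.75 to 0.41, adjusted p = 0.947), a sign that turned under quantile normalization (0.12) and with the mean of its probes (0.073). EPHB3 differed by 0.47 ± 0.21 without overlap (adjusted p = 0.16).

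Of the 8 ephrins, EFNA5 was called and 6 of 8 were above 0. EFNA5, an A-class ephrin known for repelling retinal axons, gave -5.13, -5.27 and -5.53 on the control arrays, against -3.05, -3.68 and -3.97 with LOX-PP. The groups were clearly separate, but 2 of the 3 arrays in each group measured it well above background. The rise was 1.62 ± 0.29 (3.08-fold, adjusted p = 0.0211), and it ran from 1.11 to 1.82 over the alternatives. It passed under 9 of 16 alternatives, and the call was lost under quantile normalization (1.22, adjusted p = 0.198), with no filter (1.45, adjusted p = 0.085) and in the methods' t-test (adjusted p = 0.0857). It was also lost without control replicate 1 (1.72, adjusted p = 0.0973), 2 (1.71, adjusted p = 0.103) or 3 (1.45, adjusted p = 0.0605) and without LOX-PP replicate 2 (1.76, adjusted p = 0.0587).

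The ligands of EPHB1 were not called. EFNB1 was the brightest ephrin probe, with log2 signals of 4.74 ± 0.28 on the control arrays and 5.13 ± 0.42 with LOX-PP (SD, n = 3 each). That difference of 0.26 was smaller than its 95% half-width (interval from -0.43 to 0.96). EFNB2 gave -2.19, -2.11 and -2.41 on the control arrays, against -0.62, -0.18 and -1.78 with LOX-PP. The groups did not overlap, but the LOX-PP arrays varied, and 1.25 ± 0.41 missed the threshold (adjusted p = 0.113) except without LOX-PP replicate 3 (1.71, adjusted p = 0.029). EFNB3 differed by -0.28 ± 0.28.

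The genes of EFNA4, EFNA3 and EFNA1 are near neighbours on chromosome 1, with 1 coding gene between EFNA4 and EFNA3 and 0 between EFNA3 and EFNA1. They did not move as a block. EFNA4 differed by -0.85 ± 0.29 (adjusted p = 0.221), EFNA3 by 0.73 ± 0.57 (adjusted p = 0.437) and EFNA1 by 1.16 ± 0.39 (adjusted p = 0.117). None of them was called, and EFNA4 and EFNA1 had groups that did not overlap in opposite directions.

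**Figure D2:**
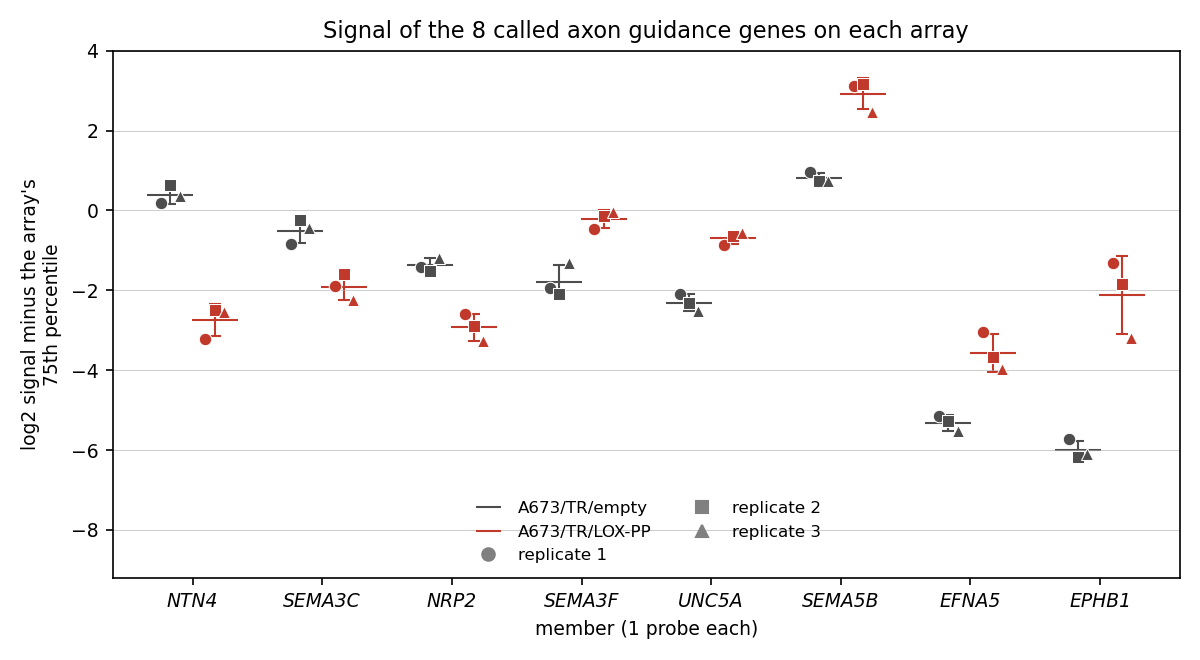
Log2 signal relative to the 75th percentile of the array for the 8 called members on the 3 A673/TR/empty arrays (grey) and the 3 A673/TR/LOX-PP arrays (red), with marker shapes for the replicates and bars for the mean ± SD (n = 3). The 2 groups are separate for every one of the 8 genes, and EPHB1 and EFNA5 are the dimmest on the control arrays.

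Semaphorins were the largest family, with 18 of 20 genes tested, 2 higher and 1 lower. SEMA5B, a transmembrane semaphorin with thrombospondin repeats, rose most. Its brighter probe gave 0.96, 0.74 and 0.73 on the control arrays, against 3.12, 3.16 and 2.47 with LOX-PP, a rise of 1.98 ± 0.26 (3.95-fold, adjusted p = 0.00731). A dimmer probe of the same gene rose by a like amount, 1.84 ± 0.31 (adjusted p = 0.0168), from -2.74 ± 0.11 to -0.77 ± 0.54 (SD, n = 3 each). The groups did not overlap on either probe. The call was lost only without control replicate 2 (2.01, adjusted p = 0.052), of 18 alternatives. SEMA5A, the closest relative of SEMA5B, gave -0.82 with an interval from -2.27 to 0.63 on a dim probe.

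The called class 3 semaphorins, which are secreted, went opposite ways. SEMA3F, a ligand of neuropilin-2, read -1.94, -2.10 and -1.31 on the control arrays, against -0.46, -0.13 and -0.04 with LOX-PP. The groups were apart, with a rise of 1.44 ± 0.28 (2.72-fold, adjusted p = 0.0257). Its call was lost without control replicate 1 (1.38, adjusted p = 0.146) or 2 (1.35, adjusted p = 0.127) and without LOX-PP replicate 2 (1.48, adjusted p = 0.077) or 3 (1.36, adjusted p = 0.0744). It was lost as well with no filter (adjusted p = 0.0999), with a replicate block (adjusted p = 0.0558) and in the methods' t-test (adjusted p = 0.0888).

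SEMA3C, which binds both neuropilins and attracts or repels depending on the cell, read -0.85, -0.25 and -0.43 on the control arrays, against -1.89, -1.59 and -2.25 with LOX-PP. The groups did not overlap, and the difference was -1.52 ± 0.27 (2.88-fold lower, adjusted p = 0.0345). This was the call nearest the threshold, and it was lost without any one of the 6 arrays. The values then ran from -1.68 without control replicate 1 (adjusted p = 0.102) to -1.33 without control replicate 2 (adjusted p = 0.163). They were -1.55 without control replicate 3 (adjusted p = 0.0925), and -1.57, -1.61 and -1.35 without LOX-PP replicate 1 (adjusted p = 0.0539), 2 (adjusted p = 0.0561) and 3 (adjusted p = 0.0837). A replicate block (adjusted p = 0.0752), no filter on dim probes (adjusted p = 0.122) and the methods' t-test (adjusted p = 0.0973) ended it as well. The direction was the same in all 18 alternatives, of which 8 passed.

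SEMA3C shares a stretch of chromosome 7 with SEMA3A, SEMA3D and the untested SEMA3E. SEMA3A, the classical growth cone collapsing semaphorin, differed by -0.49 ± 0.26 (adjusted p = 0.466), and SEMA3D, the brightest class 3 probe, by -0.20 ± 0.23 (adjusted p = 0.893), with overlapping groups in both. The sign for SEMA3D turned under quantile normalization (0.08). SEMA3F lies 3 coding genes from SEMA3B on chromosome 3, and SEMA3B differed by 0.03 ± 0.20. The called class 3 genes thus had uncalled neighbours of the same class. The 11 uncalled tested genes of classes 4 to 7 ran from -0.82 to 0.56 on the brightest probe of each. SEMA6C gave 0.41 (adjusted p = 0.341) on its brighter probe and 1.03 (adjusted p = 0.104) on its dimmer probe. Its groups did not overlap on either, and it passed in the fit on the mean of all probes of each gene (0.80, adjusted p = 0.0313). The brightest of the 11, SEMA4C, had 4.27 ± 0.18 on the control arrays and 4.32 ± 0.12 with LOX-PP, a net value of -0.08. Its sign turned under quantile normalization (0.14), and without control replicate 2 (0.09) or LOX-PP replicate 2 (0.05). It also turned in the fit on the mean of all probes of each gene (0.0044). SEMA4C has 1 probe, so that fit averaged nothing for it, and the median subtracted there was 0.05.

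The neuropilins, the receptors to which class 3 semaphorins bind, gave opposite signs. NRP2 read -1.42, -1.51 and -1.18 on the control arrays, against -2.60, -2.90 and -3.28 with LOX-PP. The groups were apart by more than a unit, and the difference on this probe was -1.69 ± 0.25 (3.22-fold lower, adjusted p = 0.0186). Of the 2 dimmer NRP2 probes, one gave -0.94 ± 0.47 (adjusted p = 0.369) and the other -0.54 ± 0.57 (adjusted p = 0.725), with overlapping groups, so the fall is seen on 1 of 3 probes. The mean of the 3 probes gave -0.97 (adjusted p = 0.164). The call was also lost without control replicate 1 (-1.70, adjusted p = 0.108), 2 (-1.69, adjusted p = 0.084) or 3 (-1.66, adjusted p = 0.0564) and without LOX-PP replicate 2 (-1.62, adjusted p = 0.0579) or 3 (-1.51, adjusted p = 0.0501). It was lost with no filter (adjusted p = 0.0806), a replicate block (adjusted p = 0.0677) and the methods' t-test (adjusted p = 0.0663).

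NRP1, a co-receptor for semaphorins and for VEGF, read 1.80, 1.85 and 1.37 on the control arrays, against 2.58, 2.73 and 2.71 with LOX-PP. The LOX-PP values were all higher and close together. The difference of 0.87 ± 0.23 stood just outside the threshold (adjusted p = 0.0521), and 5 of 18 alternatives placed it inside, among them quantile normalization (1.14, adjusted p = 0.0271). Its dimmer probe gave 0.30 ± 0.44 with overlapping groups.

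None of the 8 tested plexins, the signalling receptors of the semaphorins, was called by limma or by the methods' t-test, with 5 above and 3 below 0. At an unadjusted p under 0.05, 2 of them passed in limma, 1 higher and 1 lower, beside 6954 of all 32647 tested probes. PLXNA4 passed without LOX-PP replicate 1 (1.07, adjusted p = 0.0396). PLXNB3, a receptor of SEMA5A, went from -6.03 ± 0.74 on the control arrays to -3.99 ± 0.78 with LOX-PP (SD, n = 3 each). The probe was well above background on 1 control array and 2 LOX-PP arrays, and 1.91 ± 0.51 missed the threshold (adjusted p = 0.0692). It was 1.05 after normexp background correction (adjusted p = 0.0533) and 0.71 with a common floor (adjusted p = 0.246). It passed in the fit on the mean of all probes of each gene (1.99, adjusted p = 0.0452). PLXNB3 has 1 probe, so that fit averaged nothing for it. PLXNB2, the brightest plexin, gave -0.33 with an interval from -0.87 to 0.21. PLXND1 and PLXNA1 had lower values on the LOX-PP arrays without overlap (-0.83 ± 0.20, adjusted p = 0.105, and -0.59 ± 0.21, adjusted p = 0.266).

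The Slits and Robo receptors, a repulsive ligand and receptor pair, had 0 calls among 6 tested genes in limma. The methods' t-test also called 0 of them. In limma 1 passed at an unadjusted p under 0.05, beside 6954 of all 32647 tested probes. Likewise 1 of the 6, SLIT3, had groups that did not overlap, beside 33.6% of all genes. SLIT3 had -3.30 ± 0.14 on the control arrays and -2.44 ± 0.34 with LOX-PP, a difference of 0.73 ± 0.25 (adjusted p = 0.103). SLIT2, the brighter Slit, gave -0.54 ± 0.39 (adjusted p = 0.591). ROBO4, known from endothelial cells, gave 1.08 ± 0.58 (adjusted p = 0.283) with 1 control array and 2 LOX-PP arrays well above background. Without LOX-PP replicate 1, and so within slide 1, it was 1.69 and passed (adjusted p = 0.0391), and with a common floor it was 0.46 (adjusted p = 0.278). ROBO2, the brightest Robo probe, gave 0.11 with an interval from -0.92 to 1.15, and its sign turned without LOX-PP replicate 1 (-0.40), without control replicate 3 (-0.06) and with no filter on dim probes (-0.06). Neither ROBO1 nor ROBO3 passed, at 0.10 and 0.38.

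**Figure D3:**
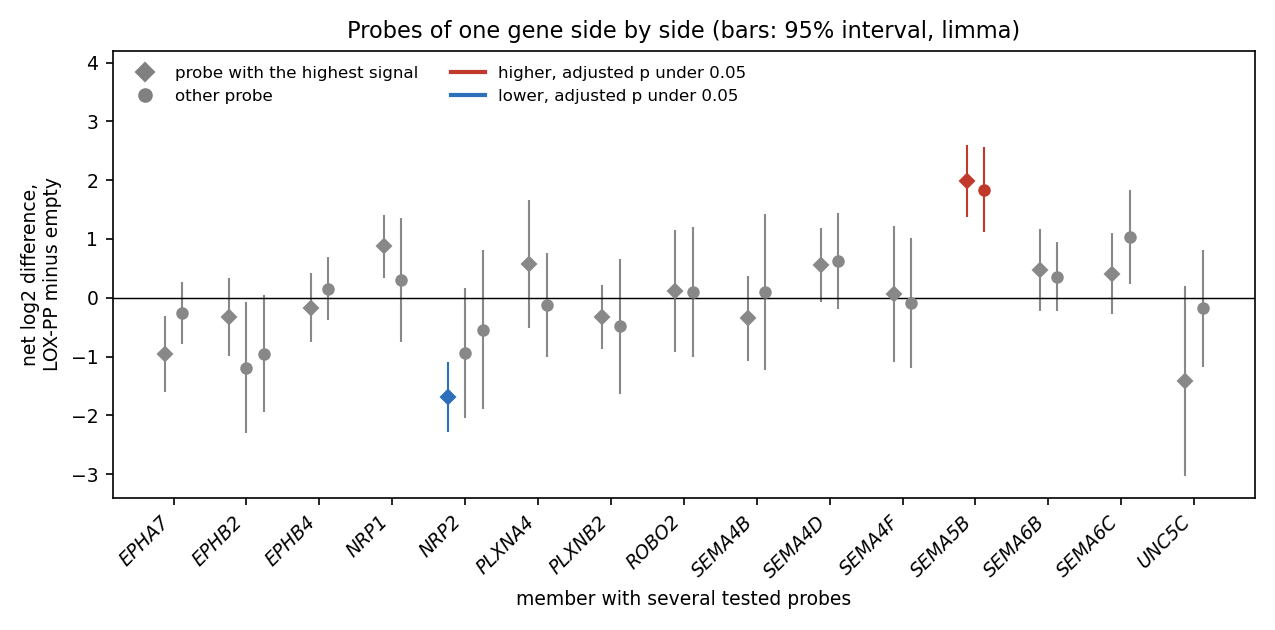
Net log2 difference of each tested probe for the 15 members with more than 1 tested probe; diamonds mark the probe with the highest signal, circles the other probes, and bars 95% intervals of limma. Both probes of SEMA5B lie near 1.9, and 1 of the 3 probes of NRP2 is called.

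Another 6 members were too dim to test. EPHA1, EPHA6, PLXNA2 and SEMA3E were well above background on 0 arrays, and SEMA6D and SLIT1 on 1 array of each group. EPHA1 gave values between -7.67 and -5.57, on 5 of the 6 arrays below the lowest signal that counted as well above background there. No direction can be read from these probes. Of the 15 members with several tested probes, SEMA5B was called on both, NRP2 on 1 of 3, and the other 13 on none. Signs differed between probes of EPHB4, PLXNA4, SEMA4B and SEMA4F, with every interval across 0.

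The slide of an array was not balanced between the groups, since replicate 1 of A673/TR/LOX-PP was alone on its own. Within slide 1, without that array, 7 of the 8 called members were still called, and SEMA3C was not (-1.57, adjusted p = 0.0539). PLXNA4 and ROBO4 were added there, which makes 9. Over all 18 alternatives together, the 8 called members gave 141 values, which all had the sign reported above, and 102 of them passed the threshold. The alternatives refit the arrays on which these members were called, so the shared sign is no independent support. The slide as a block and leaving out LOX-PP replicate 1 are the same fit and were both counted.

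**Figure D4:**
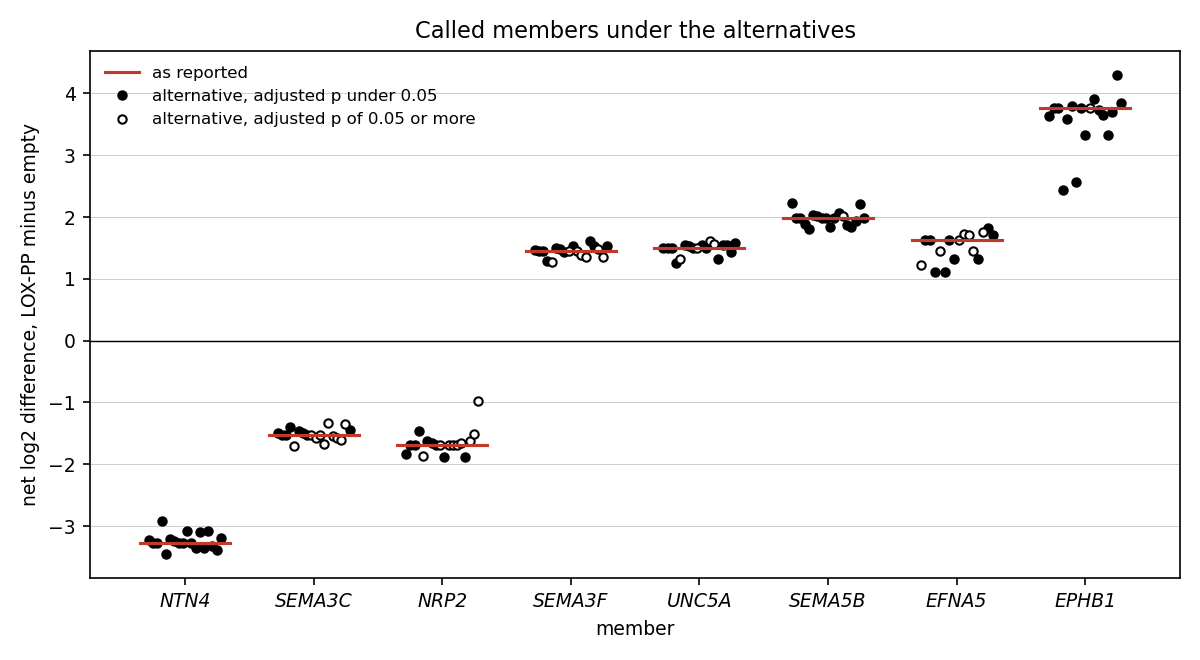
Net log2 difference of the 8 called members under each alternative (filled points, adjusted p under 0.05; open points, 0.05 or more), with the reported value as a red line. NTN4 is filled throughout, SEMA5B and EPHB1 have 1 open point each, and SEMA3C has 10.

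Inside the cell, guidance receptors act through kinases and through exchange factors and GTPase-activating proteins for Rac and Cdc42. Of 75 such effectors, 71 were tested and 6 were called (8.45%), 3 higher and 3 lower, a share near the 7.07% of all genes (3.7% higher and 3.37% lower). TIAM1, an exchange factor for Rac, read -4.07, -4.13 and -5.70 on the control arrays, against 0.89, 0.54 and 0.01 with LOX-PP, a rise of 4.99 ± 0.49 (adjusted p = 0.00308), with 2 of 3 control arrays well above background. Its size was 3.67 after normexp background correction and 4.39 without control replicate 3, and the methods' t-test ended the call (adjusted p = 0.0518).

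NGEF, also called ephexin, is an exchange factor that acts downstream of EphA receptors. It read -2.74, -2.66 and -1.85 on the control arrays, against 0.51, 1.15 and 1.48 with LOX-PP, a rise of 3.34 ± 0.36 (10.1-fold, adjusted p = 0.00397), which only the methods' t-test took out of the calls. FER, a cytoplasmic tyrosine kinase, rose by 1.46 ± 0.28 (adjusted p = 0.0261). These 3 rises had no overlap between the groups.

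The effectors that fell were CHN1, a GTPase-activating protein for Rac used by EPHA4, FARP1, an exchange factor that binds plexins, and DPYSL3, a collapsin response mediator. CHN1 fell by 2.01 on the log2 scale (SE 0.29, adjusted p = 0.0168), FARP1 changed by -1.56 ± 0.22 (adjusted p = 0.016) and DPYSL3 changed by -1.38 ± 0.20 (adjusted p = 0.0173). A dimmer probe of FARP1 was called as well (-1.17, adjusted p = 0.0395), and the other was not (-0.89, adjusted p = 0.174). In this list 52 of 71 effectors were below 0, and their median was -0.34, compared with -0.09 for all genes. The share of all genes below 0 was not counted, and genes of like brightness were not compared. The calls of FER, CHN1, FARP1 and DPYSL3 were each lost without control replicate 1 or 2 (net differences from 1.39 to 1.52, from -2.04 to -1.98, from -1.54 to -1.40 and from -1.35 to -1.32). They were also lost without control replicate 3 for FER (1.47), CHN1 (-2.01) and DPYSL3 (-1.47), without LOX-PP replicate 2 for FER (1.41) and DPYSL3 (-1.28), and without LOX-PP replicate 3 for FER (1.33), CHN1 (-2.06) and FARP1 (-1.54). The count of called effectors was 2 without control replicate 1 or 2, and 3 without control replicate 3 or LOX-PP replicate 3.

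Of 42 other guidance ligands and surface co-receptors, 34 were tested, and 0 were higher and 5 lower (14.7% called), beside 3.7% and 3.37% of all genes (7.07% called). At an unadjusted p under 0.05 in limma, 2 were higher and 7 lower, beside 6954 of all 32647 tested probes in both directions together. MET, the receptor for hepatocyte growth factor and a partner of some plexins, read 1.56, 1.93 and 1.79 on the control arrays, against 0.03, -0.14 and -0.64 with LOX-PP. The difference was -2.14 ± 0.26 (adjusted p = 0.00797). NRCAM, an adhesion molecule of the L1 family, changed by -1.99 ± 0.29 (adjusted p = 0.0171) on its brighter probe, and its other probe gave -0.99 (adjusted p = 0.209). ITGA1, a collagen-binding integrin subunit, changed by -1.89 ± 0.22 (adjusted p = 0.00761), RGMA, a ligand of neogenin, by -1.79 ± 0.22 (adjusted p = 0.00858), and DRAXIN, a secreted repellent, by -1.29 ± 0.23 (adjusted p = 0.0351). The median of the list was -0.07, and 16 of 34 were above 0. MET was lost without control replicate 2 (-1.99), ITGA1 and RGMA without control replicate 1 (-1.91 and -1.66) or 2 (-1.74 and -1.78), and NRCAM without these (-1.99 and -1.69) or LOX-PP replicate 2 (-1.79). DRAXIN was lost without any one of the 6 arrays, with values from -1.44 to -1.10. The 5 calls became 0 without control replicate 2, 1 without control replicate 1 and 3 without LOX-PP replicate 2. Of all probes, 444, 407 and 892 were called in these 3 fits, in the same order, compared with 1849 over all 6 arrays. At an unadjusted p under 0.05 in limma, 4350 of all probes passed without control replicate 2, compared with 6954 over all 6 arrays.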

How the data were processed

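For every array the authors deposited spot intensity, corrected for background by Agilent Feature Extraction (version 10.7 per the submitters' processing notes), and a table of processed log2 values centred by probe. Control and outlier spots were left out, the log2 intensity of replicate spots was averaged, and the 75th percentile was subtracted array by array. After centring, these values lay within 0.05 of the deposited log2 values for 50549 of 50599 probes. The 32647 probes well above background on 3 or more of 6 arrays were tested with limma 3.58.1 (R 4.3.3) without a block, with Benjamini-Hochberg adjustment. Adjusted p-values in the text are from this fit unless another setting is named. Only the limma test and its adjustment, without the steps before them, were also run on simulated arrays of independent normal values. RefSeq named 28174 probes by accession. The array design is of an older assembly, so the coordinates given are those of the RefSeq windows alone.

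Genes named are called members, the brightest member and the one with the largest difference in each family, partners of called members, and called genes of the other lists. Some uncalled family members and neighbours were named after their values were seen. The members and lists were chosen with earlier results of these data known. Alternatives were quantile normalization, median scaling, the deposited log2 values, normexp (offset 50, on median spot signals), 2 other filters on dim probes and none, a common floor, a replicate block, the slide as a block, the methods' t-test, the mean of the probes of a gene, and leaving out each array. The p-values measure the spread between these samples.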

Additional observations from a re-analysis of the deposited data

How the results depend on the processing

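Precision was limited by 3 arrays per group and, for EPHB1, EFNA5, PLXNB3 and ROBO4, by signals near background. With no filter on dim probes the called members fell from 8 to 3 (2 higher and 1 lower), all called probes to 516, effectors to 2 and other guidance genes to 3. The methods' t-test called 3 members (2 higher and 1 lower), 566 probes, 2 effectors and 2 other guidance genes. With the probes of each gene averaged, 10 of 61 members were called (8 higher and 2 lower), as were 10 effectors. The share of all genes called in that fit was not counted, so whether these counts moved with all genes cannot be told. When each array was left out in turn, called members ranged from 2 to 9 (1 to 7 higher and 1 to 2 lower), called probes from 407 to 2062, effectors from 2 to 8 and other guidance genes from 0 to 5. Quantile normalization left 8 members called, with NRP1 in and EFNA5 out, and moved the share of called probes that were higher from 58.4% (1080 of 1849) to 48.0% (908 of 1891). The filter that asked for all 6 arrays called 8 of 47 members, beside 1729 of all 24720 tested probes (51.1% of the called probes higher). EPHB1 and EFNA5 could not be tested there.

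Replicate numbers are shared between the groups, and the methods describe 3 separate experiments without saying whether the lines were paired. Deviations of same-numbered arrays from their group means correlated at 0.27, -0.39 and 0.23. With 3 arrays per group, these values cannot decide whether the numbers pair the samples. A replicate block called 4 members (3 higher and 1 lower), 860 probes, 2 effectors and 3 other guidance genes.

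No called member changed direction. Among 302 values of the 17 other named members, 11 came past the threshold and 11 turned sign, and the cause was not tested. The turned values were 0.12 and 0.073 for EPHB4 (quantile normalization and mean of probes), 0.079 for SEMA3D (quantile normalization), and 0.14 and 0.0044 for SEMA4C (quantile normalization and mean of probes). For SEMA4C, which has 1 probe, the mean of probes averaged nothing, and the median subtracted was 0.05 there and 0.13 in the main fit. SEMA4C also turned without control replicate 2 (0.090) or LOX-PP replicate 2 (0.054), within a range from -0.18 to 0.090 over the arrays left out. ROBO2 turned to -0.064 with no filter, to -0.060 without control replicate 3, and to -0.40 with the slide as a block, which equals leaving out LOX-PP replicate 1, within a range from -0.40 to 0.46 over the arrays left out.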
